A study of Zea mays with 137 samples.

Results

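The genes described here are 100 maize genes on chromosomes that were not varied (*trans* genes) and whose mean leaf RNA level was above the diploid control both when 2 chromosome arms were lost and when 2 arms were gained. They were taken from 3741 candidate genes on chromosomes 2, 7, 8 and 10 with a diploid level of 5 to 300 FPKM (fragments scaled to transcript length and library size) in all 9 sets of controls. These candidates are a part of the 14725 genes on those chromosomes and of 41448 genes in all. For each gene and combination the measure was log2((aneuploid FPKM + 0.5)/(diploid FPKM + 0.5)) minus the median of the same value over the candidates, called the log2 ratio below, so that 0 is the level of the median candidate. The loss response was the mean log2 ratio of a gene over 6 double monosomies and the gain response was its mean over 6 double trisomies, for the pairs of arms 6L+9S, 3L+4L, 4L+6L, 3L+5L, 5L+6L and 4L+5L. The 100 genes are those for which the smaller of the 2 responses was highest. The members were thus chosen by the measured values of these 12 combinations and their controls, which are given as a description with no test.

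The plants were maize of the inbred line W22, grown in a greenhouse, and leaf tissue was taken at 45 days. B-A translocations, exchanges between the supernumerary B chromosome and an arm of a normal A chromosome, crossed into W22, gave 1 copy (monosomy), 3 copies (trisomy) or, in rare plants, a tetrasomy of an arm. There were 137 plants, of which 108 carried one of 33 combinations of 2 varied arms and 29 were diploid controls segregating beside them, with 1 to 5 plants per combination and 2 to 4 controls per pair. These 6 pairs had a double monosomy and a double trisomy, and beside these they had 12 other combinations against the same controls. The remaining 3 pairs, 1L+3L, 1L+5S and 1S+9L, had 9 combinations with controls of their own, none of them a double monosomy. Each combination with a tetrasomy (trisomy 1L+tetrasomy 5S, tetrasomy 3L+trisomy 5L, trisomy 4L+tetrasomy 6L) was a single plant.

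The model has limits that bear on these values. The controls of 1L+3L and of 6L+9S, and one control of 5L+6L, are recorded as euploids that carry a translocation. The plants of trisomy 1S+monosomy 9L were recorded as sampled with the leaf mid-rib, those of monosomy 3L+monosomy 5L as whole leaf with rib, and those of monosomy 3L+monosomy 4L from later leaves. One plant labelled monosomy 1S+trisomy 9L has a karyotype record that names the opposite combination, and the label was followed here. The deposited values are 1 mean per group, so the spread between plants and the sequencing depth were not available to any statement below, and none carries a test. Level and ratio are relative to the other RNA of the library, and in bulk leaf fewer cells of a type and less RNA per cell cannot be told apart.

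Loss or gain of an arm alters the dose of the genes on it (*cis*) and also the RNA of genes elsewhere (*trans*). In an inverse effect, the *trans* target goes up when the dose of the arm goes down, and in a direct effect target and dose go the same way. Such effects are attributed to dosage-sensitive regulators, such as transcription factors, signalling components and chromatin proteins, whose amounts must stay in proportion to their partners. A *trans* gene whose level is higher with the loss and with the gain follows neither the direct nor the inverse pattern over both doses. The W22 identifiers are not paired with names or functions in the files or in the reference table, so genes are given by identifier and position only.

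The responses of the 100 genes were small for most of them. The median loss response was 0.32 (1.2-fold) and the median gain response was 0.21 (1.15-fold), beside -0.01 and 0.00 for all 3741 candidates. The smaller response ranged from 0.15 (1.11-fold) to 0.66 (1.58-fold), with a median of 0.20. The loss response was the larger in 77 of the 100 genes and in 1798 of the 3741 candidates. Among the candidates the loss response also ranged more widely (-4.58 to 3.33) than the gain response (-1.03 to 0.67). A loss response of at least 1.5-fold was found in 18 of them (2.99% of candidates) and a gain response of that size in 2 (0.107% of candidates). Candidates with both responses above 0 numbered 977, or 26.1%.

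The list has no natural edge. The gene at rank 100, Zm00004b025721 on chromosome 8, had a smaller response of 0.15020, and the first gene outside had 0.15004. There were 13 listed genes within 0.01 above the lowest value and 26 candidates within 0.01 below it. At the opposite corner, the 100 candidates with the lowest values in both directions had a larger response of -0.54 to -0.21.

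**Figure D1:**
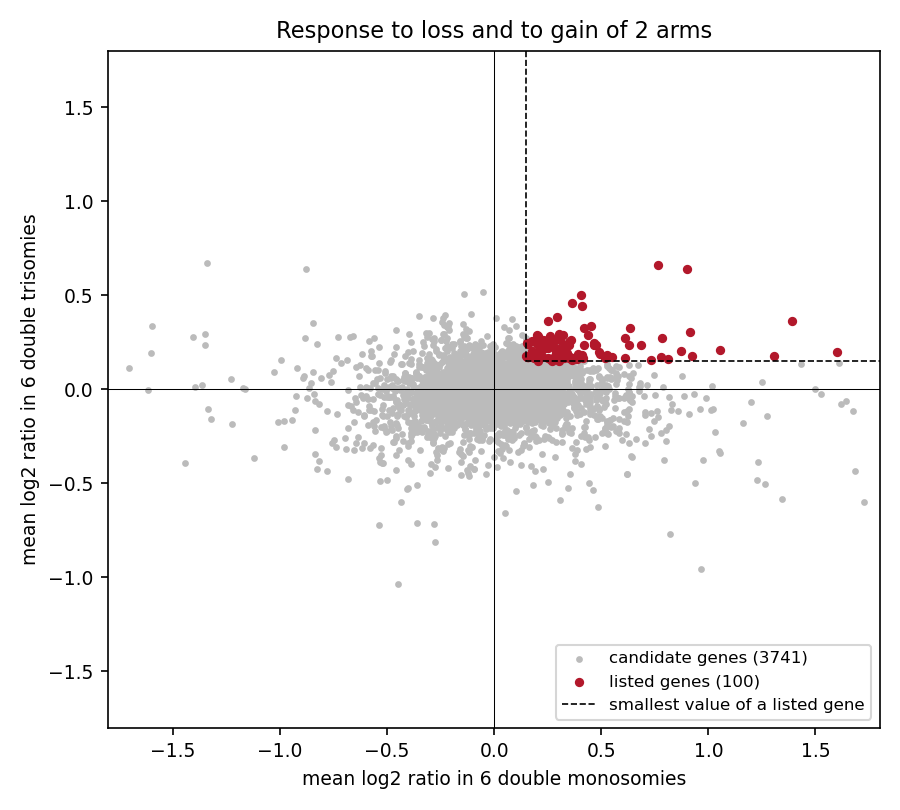
Mean log2 ratio over the 6 double monosomies (x axis) against the mean over the 6 double trisomies (y axis), 1 point per gene, for 3741 candidates (grey) and the 100 listed genes (red); 9 candidates lie outside the axes. The dashed corner is the lowest value of a listed gene, 0.15, and most red points sit close to it, with a longer tail to the right than upwards.

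The mean responses were not shared by every pair of arms. A listed gene was above 0 in a median of 10 of the 12 combinations that chose it (6 for candidates) and in at least 5. There were 59 listed genes above 0 in 10 or more, and the share of candidates was not counted. The number above 0 in all 6 double monosomies was 27 (6.50% of candidates), the number above 0 in all 6 double trisomies was 15 (2.27%), and the number above 0 in all 12 was 5 (0.348%). In 4 genes the loss response was at or below 0 without its highest double monosomy, in 5 the gain response was at or below 0 without its highest double trisomy, and 8 genes were touched by one or the other. Counted by the pair with the highest mean, 23 genes were highest for 4L+5L, 21 for 5L+6L, 19 for 4L+6L, 13 for 3L+5L, 12 for 3L+4L and 12 for 6L+9S.

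Among the double monosomies that chose the genes, the median log2 ratio of the 100 genes was 0.46 for 6L+9S, with 38 genes at least 1.5-fold up (7.11% of candidates), 0.43 for 5L+6L, with 35 up (7.40%), and 0.43 for 4L+5L, with 41 up (11.1%). It was 0.35 for 3L+4L, with 28 up (12.1%), 0.28 for 3L+5L, with 25 up (6.74%), and 0.18 for 4L+6L, with 21 up (6.90%). Between 71 and 92 genes were above 0. The double trisomies had lower medians in 5 of the 6 pairs. They were at 0.30 for 5L+6L, with 21 up (3.18%), 0.28 for 4L+6L, with 23 up (6.04%), and 0.26 for 4L+5L, with 13 up (3.61%). The others were at 0.23 for 3L+5L, with 11 up (1.23%), 0.11 for 3L+4L, with 5 up (1.95%), and 0.05 for 6L+9S, with 5 up (1.26%). The pair 6L+9S thus had the highest double monosomy and the lowest double trisomy, and 4L+6L was the pair in which gain exceeded loss. A gene coding for a photosystem II reaction centre W protein, Zm00004b018833, which marks photosynthetic leaf cells, was present in all 42 groups, at 115 to 1465 FPKM. Its level was 255 FPKM in double monosomy 3L+5L against 926 FPKM in the controls of that pair. It was 817 FPKM in double monosomy 6L+9S against 1465 FPKM, and 1143 FPKM in double trisomy 3L+4L against 601 FPKM. Its part in the values of the listed genes was not tested.

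The same pairs held 12 combinations whose plants did not choose the genes but whose controls did, so a low control mean of a gene raises all of these ratios together. The median log2 ratio of the 100 genes was above 0 in 11 of the 12. For trisomy with monosomy it was 0.46 in monosomy 5L+trisomy 6L, with 36 genes at least 1.5-fold up (8.69% of candidates), and 0.42 in monosomy 3L+trisomy 4L, with 37 genes up (12.4%). It was 0.40 in trisomy 5L+monosomy 6L, with 28 genes up (7.91%). These 3 combinations were of the same order as the double monosomies. Lower medians were 0.35 in trisomy 6L+monosomy 9S, with 30 genes up (7.54%), 0.34 in monosomy 4L+trisomy 5L, with 29 up (4.09%), and 0.23 in trisomy 4L+monosomy 5L, with 20 up (3.96%). The values were 0.20 in trisomy 3L+monosomy 4L, with 23 up (4.54%), 0.18 in trisomy 3L+monosomy 5L, with 13 up (5.21%), and 0.14 in trisomy 4L+monosomy 6L, with 14 up (3.02%). The exception was monosomy 6L+trisomy 9S, at -0.12, where 42 genes were above 0, 8 were up (5.21%) and 20 were at least 1.5-fold down (9.97% of candidates). In monosomy 3L+trisomy 4L the photosystem II gene was at 115 FPKM against 601 FPKM in its controls. It was at 540 FPKM in monosomy 5L+trisomy 6L and at 1039 FPKM in trisomy 5L+monosomy 6L, against 1078 FPKM in their controls. The part of these differences in the values of the listed genes was not tested.

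Of the 3 single-plant combinations with a tetrasomy, those on shared controls were among the highest and trisomy 1L+tetrasomy 5S, at 0.11, was not. The median was 0.53 in trisomy 4L+tetrasomy 6L, the highest of the 33 combinations, with 46 genes at least 1.5-fold up (11.5% of candidates), and 0.45 in tetrasomy 3L+trisomy 5L, with 42 up (8.47%). The double trisomies of the same arms were at 0.28 and 0.23. Being 1 plant each, they have no replicate.

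**Figure D2:**
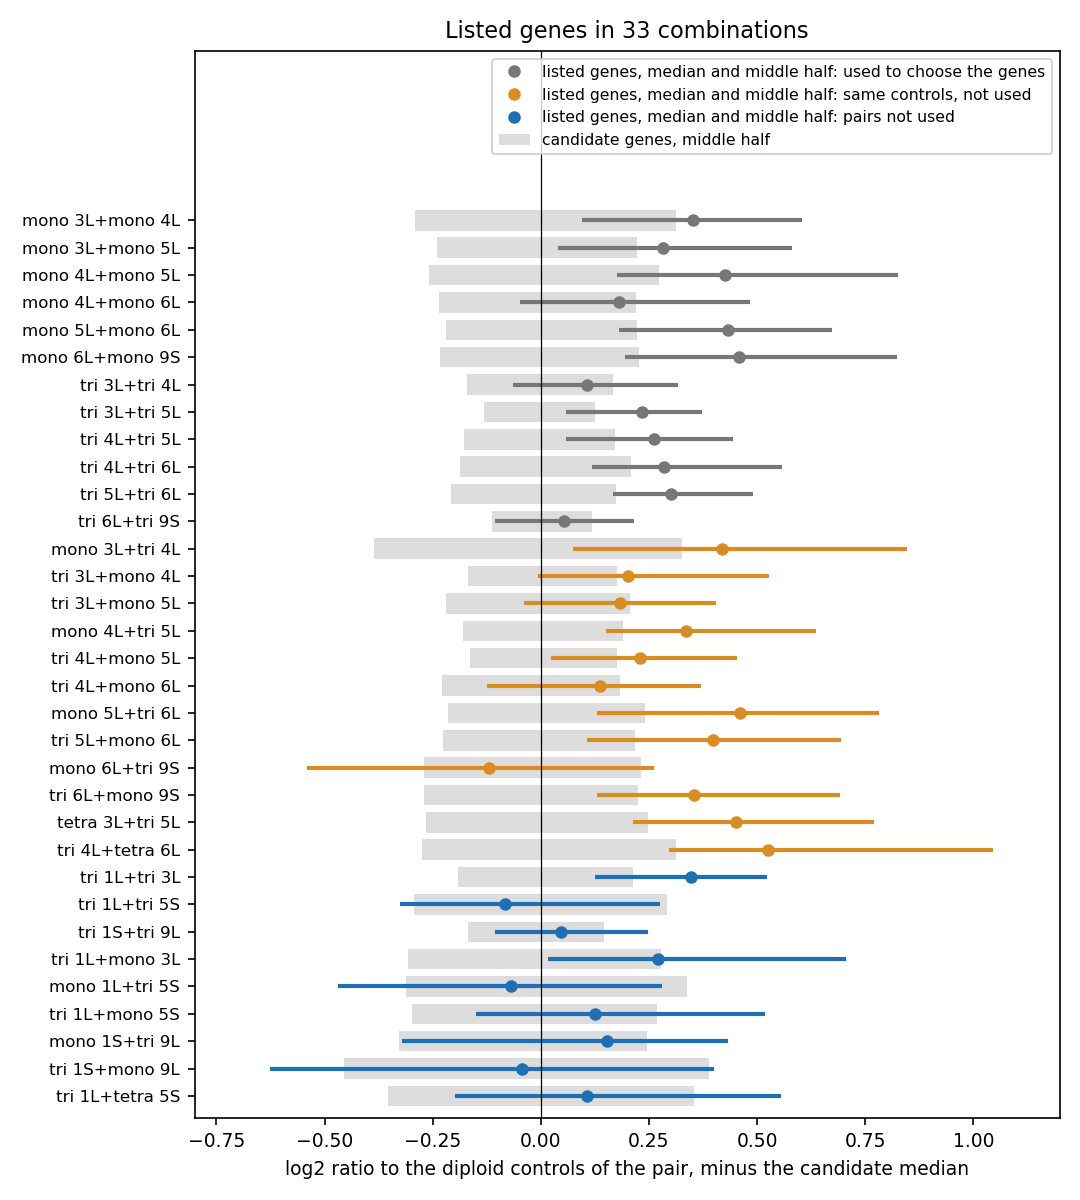
Median (point) and interquartile range (line) of the log2 ratio of the 100 listed genes in each of 33 combinations, with the interquartile range of all candidates as grey bars; grey points are combinations that chose the genes, orange ones share their controls, and blue ones come from pairs that were not used. Medians run from -0.12 to 0.53 and 29 of 33 are above 0; the blue points of 1L+5S and 1S+9L lie between -0.08 and 0.15, and those of 1L+3L at 0.27 and 0.35.

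The 3 pairs that did not choose the genes have their own plants and controls, and there the difference from the candidates was smaller and uneven. Averaged over the 9 combinations, the log2 ratio of the listed genes had a median of 0.11 (-0.01 for candidates), 60 of 100 were above 0 (49.2% of candidates) and 9 were at least 1.5-fold up (3.56%). Without centring on the candidates the median was 0.02. At least 1.5-fold down were 3 listed genes (8.02% of candidates). Above 0 in all 9 combinations were 6 genes (5.99%), a share near that of the candidates. Averaged over the double trisomies alone, the median was 0.12, 74 genes were above 0 (47.8%), 4 were at least 1.5-fold up (1.23%), 2 were as far down (1.52%), and 18 were above 0 in all 3 (13.1%).

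The excess of the median depended on 1L+3L. Arm 3L was also varied in pairs that chose the genes, whereas the arms of 1L+5S and 1S+9L were not. The reading in 1L+3L is therefore not independent of the arms behind the choice. The part of this shared arm in the excess was not tested. Double trisomy 1L+3L had a median of 0.35, with 83 genes above 0 and 20 at least 1.5-fold up (6.44% of candidates). Trisomy 1L+monosomy 3L had a median of 0.27, with 75 genes above 0 and 30 up (9.06%). Without this pair the median of the mean over the remaining 7 combinations was 0.03, and 11 genes were at least 1.5-fold up. Without 1L+5S 5 genes were. The share of candidates was not counted for these smaller sets, so these 2 counts have no background beside them. In trisomy 1L+monosomy 3L the photosystem II gene was at 375 FPKM against 881 FPKM in its controls. In double trisomy 1L+3L, which had the higher median of the listed genes, it was at 1102 FPKM against the same controls. Its part in these values was not tested. In 1L+5S the medians were -0.08 in the double trisomy, with 14 genes up (10.1%) and 13 down (12.4%), -0.07 in monosomy 1L+trisomy 5S, with 14 up (13.4%) and 21 down (13.3%), and 0.13 in trisomy 1L+monosomy 5S, with 21 up (7.99%). The single plant of trisomy 1L+tetrasomy 5S was at 0.11, with 22 up (14.5%). No combination of this pair thus had a median outside the interquartile range of the candidates. That range is the spread of single genes and is wide for a median. Double monosomy 4L+6L and double trisomies 3L+4L and 6L+9S, which chose the genes, also had medians within theirs, as did trisomy 1L+monosomy 3L. In 1S+9L the medians were 0.05 in the double trisomy, with 4 up (1.90%), 0.15 in monosomy 1S+trisomy 9L, with 14 up (5.91%) and 16 down (13.2%), and -0.04 in trisomy 1S+monosomy 9L, with 18 up (15.1%) and 26 down (20.4%). Leaving out trisomy 1S+monosomy 9L, sampled with the mid-rib, and the tetrasomy plant gave a median of 0.10.

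The rule was then applied to 5 of the 6 pairs and the 100 genes so chosen were read in the sixth. The plants of the sixth pair had taken no part in that choice, and its controls only through the diploid range of 5 to 300 FPKM. The arms, however, recur between pairs. These 6 lists held 60 to 73 of the 100 genes. In the double monosomy the median of the left-out list was 0.30 for 6L+9S, 0.29 for 4L+5L, 0.27 for 5L+6L, 0.13 for 3L+5L, 0.04 for 3L+4L and -0.04 for 4L+6L. It was above 0 in 5 of 6 pairs, with a mean of 0.16 ± 0.15 (SD, n = 6 pairs). In the double trisomy it was 0.16 for 5L+6L, 0.09 for 3L+5L, 0.02 for 4L+5L, -0.0018 for 4L+6L, -0.06 for 6L+9S and -0.07 for 3L+4L. It was above 0 in 3 of 6 pairs, with a mean of 0.02 ± 0.09 (SD, n = 6 pairs), and without the reading in 5L+6L this mean was -0.0047. The mean of the gain side was thus smaller than the SD between pairs, and that of the loss side slightly larger than its SD. This SD describes the scatter of single pairs and not the error of their mean. The lists also share genes, so it decides nothing about either side. With the controls of the other 8 pairs as the reference the mean of the gain side was 0.095. Those controls include pairs that chose the genes, so that reading is not independent of the choice.

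What defines the list is a joint excess, and this was also counted in the left-out pair. Genes above 0 in both the double monosomy and the double trisomy numbered 58 of 100 for 5L+6L (27.2% of candidates), 44 for 3L+5L (30.3%) and 34 for 4L+6L (27.9%). There were 33 for 4L+5L (26.5%), 29 for 6L+9S (25.9%) and 26 for 3L+4L (31.5%). Both combinations of a pair are divided by the same control mean, so these counts also hold whatever is particular to those controls. The count for 5L+6L was above its background by the largest margin and that for 3L+4L was below it.

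**Figure D3:**
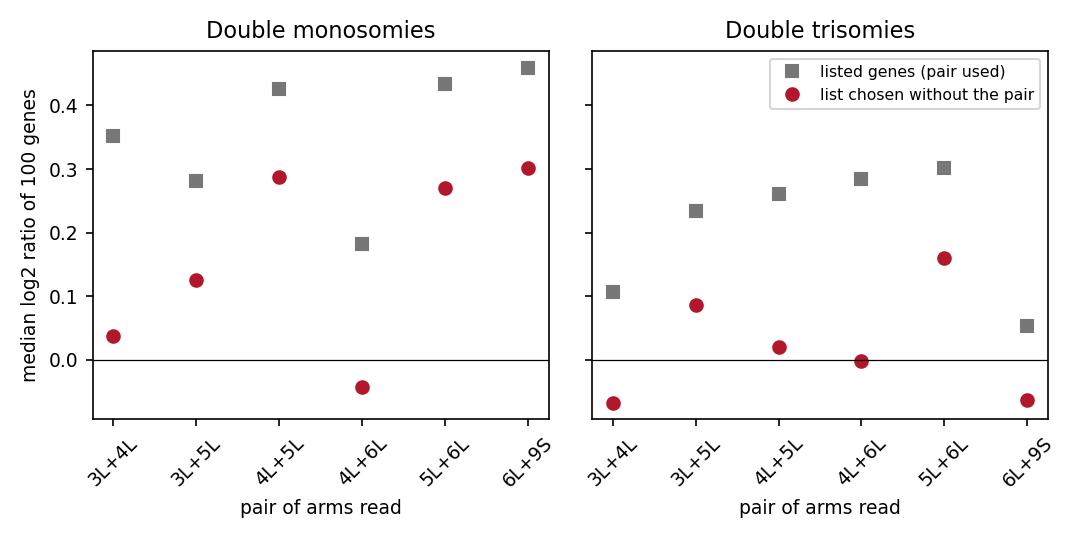
Median log2 ratio of 100 genes in the double monosomy (left) and the double trisomy (right) of each of 6 pairs; grey squares are the listed genes, chosen with that pair, and red circles are lists chosen without it. Every red circle lies below its square, and in the double trisomies they scatter around 0, from -0.07 to 0.16.

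The diploid levels of the listed genes differed between pairs more than those of the candidates. The SD of the log2 diploid level over the 9 control sets had a median of 0.33 for listed genes and 0.24 for candidates. The SD was above the upper quartile of the candidates, 0.37, in 44 of the 100 listed genes and in 935 of the candidates, and the highest diploid mean was a median of 2.18 times the lowest (1.69 times for candidates). The controls of the 6 pairs that chose the genes were lower than those of the other 3 pairs in 79 genes (45.4% of candidates), by a median of -0.20 (0.03 for candidates). The rule divides by the former controls, so low values there were favoured by the choice.

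By pair, the diploid level relative to the gene's own mean over all controls had a median of -0.19 for 5L+6L, -0.12 for 4L+6L, -0.11 for 4L+5L, -0.05 for 6L+9S, -0.02 for 3L+4L and 0.10 for 3L+5L. The other pairs were at -0.04 for 1L+3L, 0.16 for 1S+9L and 0.25 for 1L+5S. Averaged over the double monosomy and double trisomy of a pair, the log2 ratio of the listed genes had a median of 0.38 for 5L+6L and 0.32 for 4L+5L. It was 0.27 for 4L+6L, 0.25 for 6L+9S, 0.25 for 3L+5L and 0.22 for 3L+4L. These responses fell roughly as the control level rose, with only neighbouring pairs exchanged. The control level is subtracted in the response and the rule chose on that response. This order was therefore favoured in advance and shows no link, which was not tested. The left-out readings, made with other lists, followed the control level less closely. The pair 5L+6L, with the lowest controls, had the highest joint count in the left-out reading (58), but 3L+5L, with the highest controls of the 6 pairs, had the next highest (44), and 4L+6L, with the next lowest controls, had left-out medians of -0.04 and -0.0018. In 1L+5S, where controls were highest of all, medians were -0.08 to 0.13. When the controls of the 3 unused pairs served as the reference for all 6 pairs, an alternative chosen after seeing the data, the median loss response of the listed genes was 0.10 and the median gain response was -0.03. Against those controls 9 of the 100 genes would have been listed. With the controls of the other 8 pairs as the reference, the responses were 0.28 and 0.15 and 34 genes stayed on the list. The size of the gain response thus depended on which diploids were the reference, down to a change of sign.

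**Figure D4:**
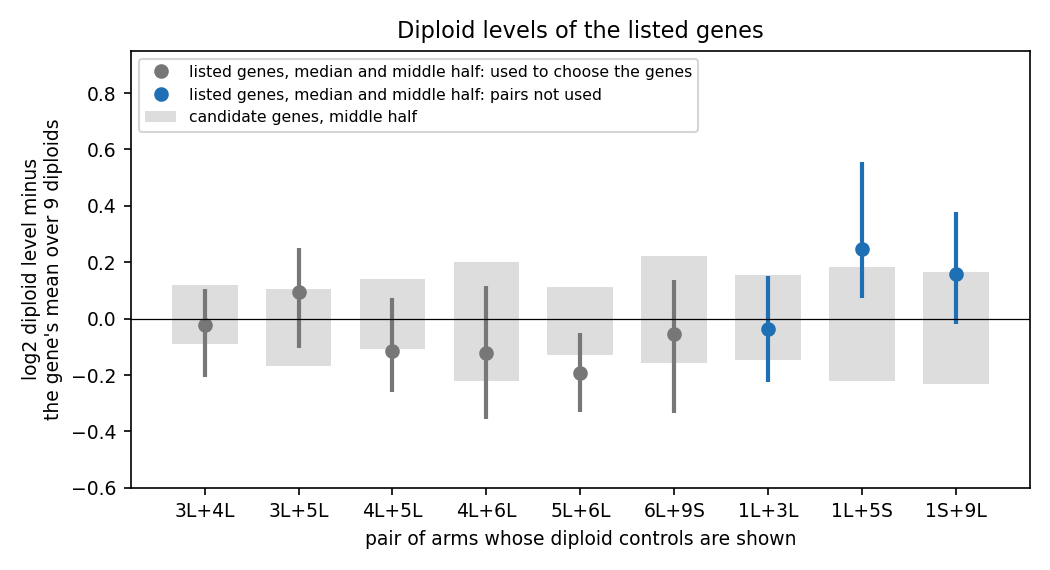
Diploid level of the 100 listed genes in the 9 control sets, as log2(FPKM + 0.5) centred on the candidate median of each set, minus the gene's own mean over the sets (points, medians; lines, interquartile ranges; grey bars, interquartile range of candidates). Pairs that chose the genes (grey points) lie between -0.19 and 0.10, and 1L+5S and 1S+9L (blue) lie above them at 0.25 and 0.16.

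By the rule for naming, Zm00004b006625 and Zm00004b026635 had the highest smaller responses. Zm00004b006625 (chromosome 2, 19042448 to 19046316) had a loss response of 0.76 and a gain response of 0.66, yet it was above 0 in only 6 of the 12 combinations. Its double monosomies had 22.5, 75.7 and 586 FPKM as the lowest, median and highest value and its double trisomies 27.4, 49.3 and 259 FPKM, over a diploid range of 9.57 to 87.7 FPKM. The groups overlapped, and a single combination, monosomy 3L+monosomy 5L at 586 FPKM against 15.6 FPKM in its controls, carried the loss response, which was -0.11 without it. The gain response was 0.19 without its highest double trisomy, 6L+9S at 259 FPKM. In the 3 unused pairs this gene had the highest mean log2 ratio of the listed genes, 2.06, with a range from -1.67 to 5.84. It was at 513 FPKM in trisomy 1L+tetrasomy 5S against 9.57 FPKM in the controls, and at 0.771 FPKM in tetrasomy 3L+trisomy 5L against 15.6 FPKM. Its level thus moved by large factors in both directions.

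Zm00004b026635 (chromosome 8, 129225452 to 129225869) is a short locus of 418 bases with a loss response of 0.90 and a gain response of 0.64. Its diploid levels were 8.08 FPKM for 6L+9S, 11.3 for 3L+4L, 12.5 for 1L+3L, 20.6 for 4L+6L, 27.8 for 4L+5L, 28.1 for 5L+6L, 112 for 3L+5L, 167 for 1L+5S and 178 for 1S+9L. Its double monosomies were at 28.2, 43.7 and 96.8 FPKM (lowest, median and highest) and its double trisomies at 7.30, 63.8 and 106 FPKM, all within the diploid range except the double trisomies 3L+4L (7.30 FPKM) and 6L+9S (7.57 FPKM). Its log2 ratio was 3.50 in double trisomy 1L+3L, where the control was low, and -3.06 in trisomy 1S+monosomy 9L, where the control was high. The mean over the unused pairs was -0.75, second lowest of the list.

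Zm00004b009997 (chromosome 2, 219785207 to 219787489) was the listed gene with the next highest mean in the unused pairs. Its log2 ratio there was 0.54 to 1.60, above 0 in 9 of 9 combinations, with a mean of 1.05. Its 9 diploid means were 12.0 to 38.3 FPKM, and the 9 unused combinations were at 29.2, 43.3 and 104 FPKM (lowest, median and highest). Its loss response was 0.79 and its gain response 0.27. It was at 55.3 FPKM in monosomy 4L+monosomy 6L against 18.8 FPKM in the controls, at 51.9 FPKM in monosomy 4L+monosomy 5L against 15.9 FPKM, and below its controls in double monosomy 6L+9S (18.6 against 21.1 FPKM). The unused pairs did not choose this gene for the list, but they are the reason it is named here.

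Zm00004b006312 (chromosome 2, 9856678 to 9860218) was the lowest of the list in the unused pairs, with a mean of -0.86. It was above 0 in double trisomy 1L+3L (12.7 against 10.4 FPKM) and trisomy 1L+monosomy 3L (19.0 FPKM), and below 0 in all combinations of 1L+5S and 1S+9L. Its lowest value was 2.11 FPKM in trisomy 1S+monosomy 9L against 14.2 FPKM. In the pairs that chose it the loss response was 0.41 and the gain response 0.45, and trisomy 4L+tetrasomy 6L had 46.6 FPKM against 6.90 FPKM in the controls. This gene was therefore higher in some pairs and lower in others.

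The 5 genes above 0 in all 12 combinations were singled out after their values were seen. Their responses were moderate, and 4 of them were below 0 in at least 3 of the 9 unused combinations. Above 0 means above the median candidate and not always above the controls. In double trisomy 6L+9S Zm00004b027262 was at 73.6 FPKM against 79.4 FPKM in its controls. In the same combination Zm00004b005870 was at 10.4 against 11.1 FPKM and Zm00004b007031 at 34.8 against 37.8 FPKM. Zm00004b024651 was there at 6.29 against 6.21 FPKM. Zm00004b027262 (chromosome 8, 156230188 to 156235113) had 65.8 to 103 FPKM in the diploids, 82.7, 100.5 and 138 FPKM (lowest, median and highest) in the double monosomies and 73.6, 97.7 and 122 FPKM in the double trisomies. Its loss and gain responses were 0.30 and 0.30, and its mean in the unused pairs was 0.03. Its groups overlapped, and it was above 0 in 6 of the 9 unused combinations.

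Zm00004b024651 (chromosome 8, 3545367 to 3548930) had 6.21 to 21.7 FPKM in the diploids, 8.43 to 16.8 FPKM in the double monosomies and 6.29 to 15.4 FPKM in the double trisomies. Its responses were 0.26 and 0.25, and in the unused pairs its mean was -0.38 with 2 of 9 combinations above 0. These double monosomies and double trisomies all lay within the diploid range. Zm00004b005870 (chromosome 2, 75813 to 84581) had a narrow diploid range of 10.4 to 14.2 FPKM, double monosomies of 13.1 to 17.6 FPKM and double trisomies of 10.4 to 14.0 FPKM. Its loss response was 0.32 and its gain response 0.19, and its unused mean was -0.14 with 3 of 9 above 0. Zm00004b007031 (chromosome 2, 33906596 to 33915677) had 35.2 to 70.4 FPKM in the diploids, 50.9 to 57.3 FPKM in the double monosomies and 34.8 to 59.9 FPKM in the double trisomies. Its responses were 0.26 and 0.16, and its unused mean was 0.01 with 4 of 9 above 0.

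Zm00004b038983 (chromosome 10, 87492338 to 87493532) was above 0 in all 33 combinations, the only listed gene and the only candidate of 3741 (0.0267%) with this property. Since 0 is the level of the median candidate, this does not place it above its controls throughout. In double trisomy 6L+9S it was at 118 FPKM against 125 FPKM in its controls, with a log2 ratio of 0.04. Its diploid levels were 114 to 169 FPKM, with a median of 134 FPKM. The double monosomies were at 282 FPKM for 3L+5L, 222 for 4L+5L, 213 for 3L+4L, 200.5 for 5L+6L, 193 for 6L+9S and 159 for 4L+6L. All but the last were above every diploid mean, and the double trisomies, at 118 to 191 FPKM, overlapped with the diploids. The loss response was 0.55 and the gain response 0.17. In the unused pairs the log2 ratio was 0.17 to 0.62, with a mean of 0.37, and the 12 combinations on shared controls ran from 0.11 to 0.73.

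**Figure D5:**
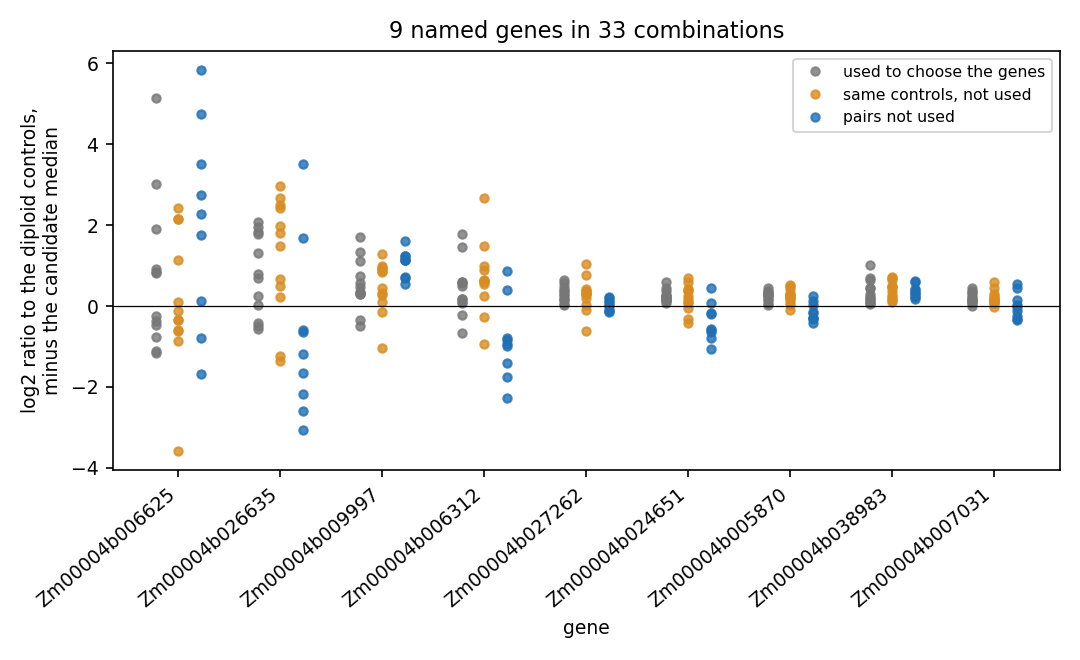
Log2 ratio of 9 named genes in 33 combinations, 1 point per combination (grey, combinations that chose the genes; orange, same controls; blue, unused pairs). The first pair spread from -3.59 to 5.84, Zm00004b009997 and Zm00004b038983 have all blue points above 0, and Zm00004b026635, Zm00004b006312 and Zm00004b024651 have 2 of 9 blue points above 0.

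A further gene, named after its values were seen, had the highest loss response of the list. Zm00004b007608 (chromosome 2, 64067427 to 64073709) had a loss response of 1.60 and a gain response of 0.20. It was at 74.9 FPKM in monosomy 3L+monosomy 4L against 11.9 FPKM in the controls and at 62.4 FPKM in monosomy 4L+monosomy 5L against 6.96 FPKM. Double trisomy 3L+4L was at 4.58 FPKM, below the same controls, and double trisomy 4L+5L was at 17.4 FPKM. Without its highest double trisomy the gain response was -0.02, so that in this gene the loss side dominated.

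The listed genes were spread over the 4 chromosomes. Chromosome 2 held 35 of them (2.82% of its 1242 candidates), chromosome 8 held 30 (3.02% of 992), chromosome 10 held 19 (2.76% of 689) and chromosome 7 held 16 (1.96% of 818). There were 4 pairs of listed genes that were direct neighbours among the candidates, which involved 7 genes. A run of 3 lay on chromosome 2 between 171508926 and 171558665: Zm00004b008711, Zm00004b008712 and Zm00004b008713. These neighbours had like responses, with loss responses of 0.24, 0.18 and 0.20, gain responses of 0.22, 0.26 and 0.29, and unused means of -0.13, -0.09 and -0.16. Zm00004b024651 and its neighbour Zm00004b024649 on chromosome 8 also had like values, with unused means of -0.38 and -0.42. The remaining neighbours, Zm00004b038156 and Zm00004b038159 on chromosome 10, differed in loss response (1.30 and 0.30).

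Length and level were compared in the same way. The median locus length was 4145 bases (4859 for candidates), and 9 of 100 loci were under 1000 bases (5.67% of candidates). Over the 9 control sets, the median diploid level of the listed genes had a median of 13.2 FPKM (18.6 FPKM for candidates). A median of 20 FPKM or more was found in 33 (46.0% of candidates). These sets include the controls of the 6 pairs that chose the genes, where the rule favoured low values. In the unused controls the medians of listed genes and candidates were 19.2 and 19.4 FPKM for 1L+5S and 18.0 and 19.8 FPKM for 1S+9L. For 1L+3L they were 13.9 and 18.3 FPKM. Loci that overlapped another gene's locus numbered 5 (8.23% of candidates). Over all 33 combinations a listed gene was above 0 in a median of 24 and in at least 16, and the median candidate was above 0 in 16. Most of these combinations chose the genes or share the controls that did, so the rule itself favoured this excess. In the 9 combinations of the unused pairs, a listed gene was above 0 in a median of 5 and a candidate in a median of 4.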

How the data were processed

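RNA of 45-day leaf tissue was sequenced from rRNA-depleted TruSeq libraries of 137 plants. The authors trimmed reads with fastp, removed organelle reads, aligned to the W22 genome and a B chromosome sequence with STAR, and made the deposited FPKM values with Cuffdiff, 1 mean per group and pair of arms (versions, library scaling and depth are not given in the sources used here). Their columns of fold changes, test statistics, p and q values and calls were not used. FPKM sums per group were 570670 to 654280. The 9 tables were normalized separately, so each comparison was centred on its candidate median, which before centring was -0.21 to 0.19 and exceeded 0.1 in size in 12 of 33 combinations. One row per comparison that names no gene was left out.

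From the deposited FPKM, log2 ratios with a pseudocount of 0.5, the 2 mean responses and the list of 100 genes were computed in Python 3.11.15 with numpy 2.4.6 and pandas 2.3.3, and plotted with matplotlib 3.10.9. The log2(FPKM + 0.5) scale understates the ratio of low genes. The code of the selection was run on simulated data, with a planted rise larger than that of most listed genes and with less noise. That run checks the code and says nothing about this list. Plants were grouped by their labels. The members, lists and comparisons were chosen with earlier results of these data known. No test was run, since group means hold no spread between plants. Except where stated, differences are set beside the same count or median of all candidates, with a fold of 1.5 as the call. Named were the 2 members with the highest smaller response and, over the unused pairs, the 2 highest and the 2 lowest means; further genes are said to be chosen after their values were seen. Alternatives were the pseudocount (0.1, 1), the diploid range (10 to 300, at least 1, none), no centring, a median over pairs, losses and gains taken from separate pairs, other controls, folds of 1.25 and 2, and each pair left out. Coordinates are those of the deposited W22 tables; no identifier matched the reference gene table and no sequence is printed.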

Additional observations from a re-analysis of the deposited data

How the results depend on the processing

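No paired analysis was possible because the deposited tables hold 1 mean per group, although the labels share replicate numbers; for the same reason no replicate could be left out, and depth, which limits all values at low FPKM, is unknown. The list depended on the processing: of the 100 genes, 98 were kept with a pseudocount of 0.1 or 1 and 68 without centring, but 65 with the median over pairs, 40 with a diploid range of 10 to 300 FPKM (60 genes then fell outside the range), 32 with a diploid mean of at least 1 and 8 with no filter. When losses came from 3L+4L, 4L+5L and 6L+9S and gains from the other 3 pairs, so that no control served both, 50 were kept, and 30 with the roles exchanged. With the controls of the other 8 pairs 34 were kept, and with those of the 3 unused pairs, chosen after seeing the data, 9. Leaving out a pair kept 60 to 73.

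The median loss response was 0.10 with the controls of the 3 unused pairs, and the median gain response was -0.035. Leaving out a pair gave 0.29 to 0.35 and 0.19 to 0.25. In the unused pairs the median was -0.012 with a range of 10 to 300 FPKM (40 of the genes), 0.31 with the controls of the other 8 pairs, 0.018 without centring and 0.03 to 0.16 leaving out a pair. The number at least 1.5-fold up there was 2 with the range of 10 to 300 and 21 with the other 8 controls. It was 5 to 15 leaving out a pair (5 without 1L+5S, 15 without 1S+9L). For these settings the share of candidates was not counted, so the counts have no background beside them. The number up was 26 at the lower fold (14.3% of candidates) and 2 at 2-fold (0.535%). For lists read in the left-out pair, the double monosomy mean was 0.39 with no filter, 0.39 with the other 8 controls and 0.14 to 0.20 leaving out a reading. The double trisomy mean was -0.031 with no filter and 0.095 with the other 8 controls. It was 0.055 with a diploid mean of at least 1 and -0.0047 to 0.041 leaving out a reading. The other 8 controls include those of pairs that chose the genes, where the choice favoured low values. With them, the readings in the unused pairs (0.31 and 21 genes) and in the left-out pairs (0.39 and 0.095) are therefore not independent of the choice. With no filter the median ratio was 0 by the weight of unexpressed genes, so no centring took place; the cause of the other differences was not tested.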
